A study of Hydra viridissima with 2 samples.

Results

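The minor scaffolds of the green hydra assembly carried 2562 of the 54909 start clusters mapped in both libraries together. A start cluster was a run of 5′ tag positions on 1 strand with at most 20 bases between neighbours and at least 5 tags over both libraries. The minor scaffolds were all scaffolds other than the 14 with the most pooled tags, and 96 of them had at least 1 tag. Of these, 56 held a cluster, and the other 40 held 171 tags in all, with at most 15 on 1 scaffold. The members were chosen by pooled tags, so the number of tags per scaffold and per cluster is a description, whereas the strand, the shape within a cluster and the ratio between libraries were not used to choose them.

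CAGE, which reads RNA from its capped 5′ end, was run on whole polyps of Hydra viridissima clone 2. A symbiotic (green) strain gave 1 library of 3926689 tags and an aposymbiotic strain, without the algal symbiont, gave 1 library of 2138180 tags, so the symbiotic library was 1.84 times as deep. Both RNA pools were made from some 200 large animals, held at 24 °C, fed brine shrimp 3 to 4 times a week and taken 2 to 3 days after a meal, with an RNA integrity number (RIN) of 10. Caps were removed by enzyme, a biotinylated dinucleotide was ligated to the freed ends, and randomly primed products were captured on streptavidin. With 1 pool per group there was no replicate check, no test was made, and each difference is one between these libraries, which may not hold for the conditions. The tissue was not checked against marker genes, since gene models were not used here.

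In CAGE, start sites fall in clusters that may be sharp, with most tags at a few bases, or broad, with tags spread over a long stretch, and both forms are common in animal genomes. Green hydra houses Chlorella algae inside its gastrodermal cells, and aposymbiotic animals are the same species without them. Small scaffolds are pieces of assembled sequence that were not joined to chromosome-sized ones. What lies on the minor scaffolds of this assembly, whether genes, repeats or other sequence, was not determined here, and start site means the position of a 5′ tag.

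The minor scaffolds held few tags, and most of these lay on a handful of scaffolds. They took 130735 tags, or 3.33% (exact 95% interval 3.31 to 3.35), of the symbiotic library and 67139 tags, or 3.14% (3.12 to 3.16), of the aposymbiotic library. Intervals on tags here and below reflect counting error alone, and are too narrow where tags are PCR copies of the same molecule. Intervals over clusters or scaffolds treat these as independent. The 4 strongest minor scaffolds held 76.3% of the pooled minor tags and the 8 strongest held 91.7%. Only 13 had at least 1000 pooled tags, 27 had at least 50 but fewer than 1000, and the 56 with fewer shared 565 tags.

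The boundary between the minor and the large scaffolds fell in a gap of 1.89 times. Just inside the minor set, scaffold_15 (rank 15) had 38317 symbiotic and 19771 aposymbiotic tags, 58088 in all. The next one, scaffold_16, had 22886 and 12252. Just outside it, scaffold_13 (rank 14) had 69456 and 40285 tags, 109741 in all, and scaffold_9 (rank 13) had 262128 in all. At the other threshold, 429 clusters on minor scaffolds had exactly 5 pooled tags, and 711 groups with 4 tags were left out.

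Tags were sparse along the minor scaffolds. Scaffold lengths are not in the files, so the extent of a scaffold was taken as its last tagged base, which is the least its length can be. Over that extent the minor scaffolds together had 5.45 tags and 0.0706 clusters per kb, against 21.2 tags and 0.189 clusters per kb on the large ones. Since the sets were divided by pooled tags, this difference follows in part from the rule. The last tagged base was 10659321 on scaffold_15 and 10700594 on the large scaffold_14, and their densities were 5.45 and 26.6 tags per kb. Among minor scaffolds with at least 50 tags, densities ran from 0.243 tags per kb on scaffold_23 to 1614 on scaffold_155, whose last tagged base was 16197, and scaffold_139, whose last tagged base was 24864, had 375. The last 2 were short scaffolds with nearly all of their tags on 1 strand.

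**Figure D1:**
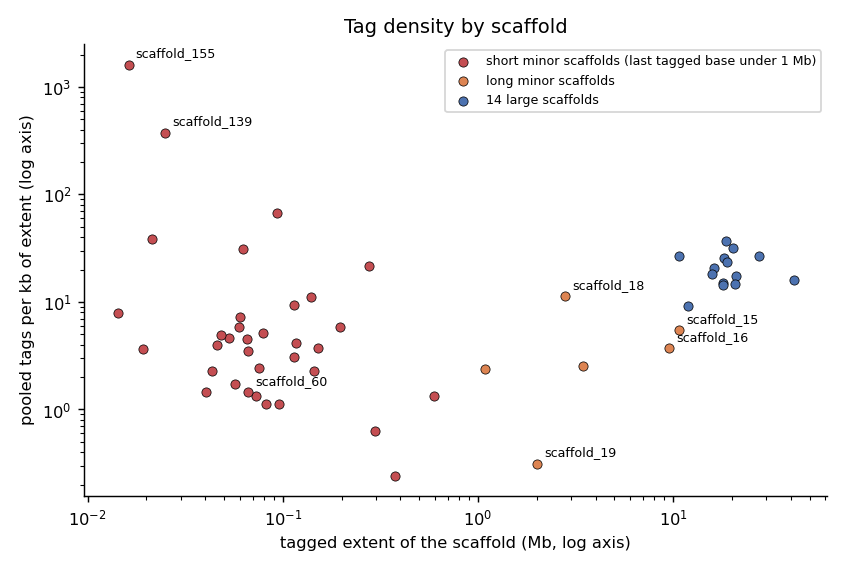
Pooled tags per kb against tagged extent (both axes logarithmic) for the 40 minor and 14 large scaffolds with at least 50 pooled tags, 1 point per scaffold. The large scaffolds lie together at the right, while scaffold_155 and scaffold_139 stand above all others with 1614 and 375 tags per kb.

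For description the minor scaffolds were divided by extent, a division made after the values were seen. In 6 long minor scaffolds (15 to 20) the last tagged base lay at 1 Mb or beyond, and they held 2041 clusters. The other 90, called short here, held 521 clusters. A short-scaffold cluster had a median of 13 pooled tags, against 9 on the long minor and 9 on the large scaffolds. Clusters took up 96.1% of the tags on short, 85.6% on long minor and 94.0% on large scaffolds. On the long minor scaffolds, single-tag positions held 16.5% of the symbiotic and 21.0% of the aposymbiotic tags. On large scaffolds these shares were 8.36% and 10.4%, and on short scaffolds 9.51% and 11.6%. The short-scaffold shares rested on a few scaffolds. Without scaffold_155, scaffold_139 and scaffold_60 they were 18.6% and 24.9%, above those of the long minor scaffolds.

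The strongest clusters held a larger share of the tags of the minor scaffolds than of the large ones. The 10 strongest held 44.6% of the pooled minor tags, whereas the 10 strongest on the large scaffolds held 13.9% of theirs. The sets differed in size, with 2562 and 52347 clusters. A fixed number of clusters makes up more of a smaller set, so the difference follows in part from size. The strongest of all lay on scaffold_15 from base 5447489 to 5447671 on the plus strand, with 16206 symbiotic tags (4127 CPM, or counts scaled to a library total of 1000000) and 7467 aposymbiotic tags (3492 CPM). It alone held 11.96% of the minor tags, against 2.702% for the strongest cluster of the large scaffolds. A pair of neighbours downstream and upstream of it were also among the 10. From 5447947 to 5448256 there were 3687 symbiotic and 2325 aposymbiotic tags, and from 5447006 to 5447111 there were 2645 and 1236. Together with 10 smaller clusters these formed a plus-strand locus from 5446836 to 5448256, a locus being a chain of clusters on 1 strand at most 1000 bases apart. That locus held 58.6% of the tags of scaffold_15.

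The second strongest cluster differed in form. It covered bases 1786 to 4040 of scaffold_18 on the plus strand, with 10873 symbiotic and 5186 aposymbiotic tags at 1174 positions. Its width, the distance spanned by the 10th to 90th percentile of its tags, was 1480 bases, and no other minor-scaffold cluster of at least 50 tags was wider. The neighbouring cluster at 4064 to 4578 (1282 and 607 tags) was 346 bases wide, the fourth widest. Tags therefore ran almost without a break of more than 20 bases over the first kilobases of scaffold_18.

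The short scaffolds supplied 4 of the 10 strongest. On scaffold_139 a single plus-strand cluster from 24059 to 24206 had 5659 symbiotic and 3662 aposymbiotic tags and a width of 44 bases. On scaffold_155 the minus-strand clusters at 2105 to 2755 (5141 and 2194 tags) and at 9694 to 9851 (3157 and 1787 tags) were 495 and 36 bases wide. On scaffold_45 a plus-strand cluster from 10089 to 10725 had 3633 symbiotic and 1622 aposymbiotic tags and was 381 bases wide. The remaining ones were minus-strand clusters of scaffold_16, at 9156399 to 9156670 (4539 and 2531 tags) and 6594761 to 6594903 (3307 and 1410 tags). In all 10 the most used base was the same in both libraries.

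The narrowest clusters were near single bases. The cluster on scaffold_24 from 191045 to 191053, plus strand, had 1085 symbiotic and 573 aposymbiotic tags, of which 88.1% lay at base 191052, and its width was 2 bases. Another on scaffold_24, from 47724 to 47749, had 66 and 47 tags with 93.8% at base 47727. The others were on scaffold_74 at 5054 to 5055, minus strand (43 and 10 tags), and on scaffold_16 at 2768408 to 2768423, plus strand (139 and 94 tags). Each of the 4 kept its most used base in both libraries.

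Apart from such extremes, cluster width on the minor scaffolds was close to that on the large ones at equal numbers of tags. In clusters of at least 20 pooled tags the median width was 36 bases (33 to 40, 623 clusters) on minor and 38 bases (38 to 39, 12513 clusters) on large scaffolds. Sharp clusters, at most 10 bases wide, made up 18.8% (15.8 to 22.1) and 16.8% (16.1 to 17.4). Divided by extent, the sharp share was 23.3% (17.5 to 30.0) on short and 16.8% (13.4 to 20.7) on long minor scaffolds. Their median widths were 33 bases (30 to 42) and 37.5 bases (33 to 41). At 5 to 9 tags the sharp share was 40.6% on short and 42.8% on large scaffolds, so the difference was not seen among weak clusters. Since width grows with tags, bins of tags were set side by side. The medians were 13 and 14 bases at 5 to 9 tags, 26 and 29 bases at 20 to 49 tags, 65 and 70 bases from 100 to under 500 tags, and 134 (69 to 170) and 112 bases at 500 tags or more. The sharp share was furthest apart at 50 to 99 tags, 18.9% (12.6 to 26.7) on minor and 12.5% on large scaffolds. Over all clusters of at least 50 tags it was 13.95% (9.97 to 18.8) on minor and 8.86% on large scaffolds. These intervals treat clusters as independent, which neighbours are not.

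**Figure D2:**
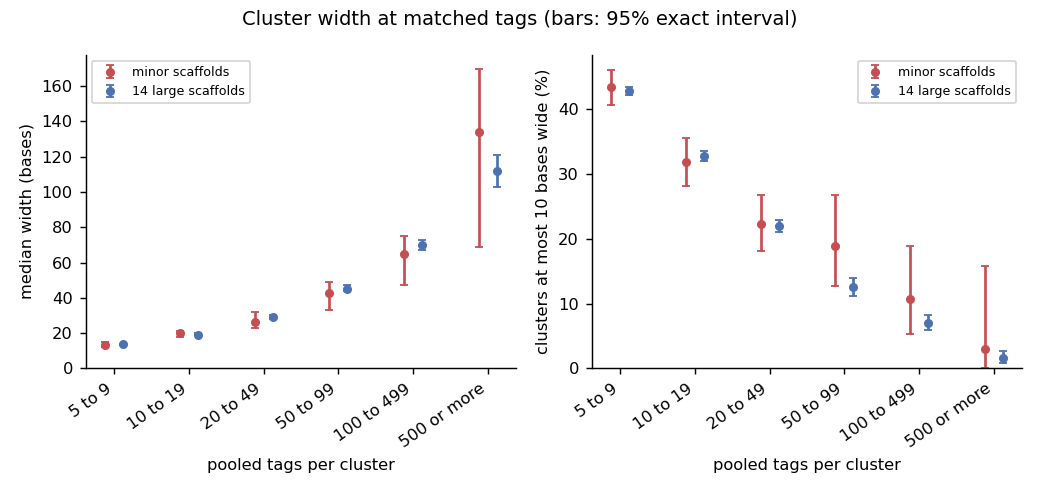
Median cluster width in bases (left) and percent of clusters at most 10 bases wide (right) by pooled tags per cluster, for minor and large scaffolds, with exact 95% intervals over clusters as bars. The medians of the 2 sets stay within a few bases of each other up to 500 tags, and are 65 and 70 bases in the bin just under it.

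The choice of the most used base within a cluster was also alike. Where each library had 20 or more tags in a cluster, both used the same base most in 137 of 219 (62.6%, 55.8 to 69.0) on minor scaffolds and in 62.5% (61.1 to 64.0) on large scaffolds. With 50 or more tags in each the shares were 72 of 93 (77.4%, 67.6 to 85.4) and 72.6%. Called in each library by itself, minor-scaffold clusters of at least 20 tags had a median width of 37 bases in the symbiotic and 35 bases in the aposymbiotic library.

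Spacing differed more than width. The median gap between neighbouring clusters on 1 strand was 90 bases (75 to 110) on short, 258 bases (220 to 307) on long minor and 177 bases (173 to 182) on large scaffolds. Without scaffold_155 the short scaffolds had a median gap of 111.5 bases. A locus held a single cluster in 46.8% of 952 cases on minor and in 35.3% of cases on large scaffolds. Clusters on opposite strands rarely lay close together. A partner on the other strand within 500 bases was found for 3 of 2562 minor-scaffold clusters (0.117%, 0.0242 to 0.342) and for 0.550% (0.489 to 0.617) of large-scaffold clusters. On short scaffolds it was found for 0 of 521, which allows a share of up to 0.576%.

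Many single minor scaffolds had nearly all of their tags on 1 strand, which no large scaffold had. Plus-strand tags made up 58.8% of the symbiotic and 59.5% of the aposymbiotic minor-scaffold tags, and 54.2% and 54.1% on large scaffolds, so the totals lay near each other. Without the strongest cluster of each set the order turned, with pooled shares of 53.5% on minor and 55.6% on large scaffolds. Each of the 14 large scaffolds had between 33.2% and 71.8% of its tags on the plus strand, whereas the 40 minor scaffolds with at least 50 tags spanned from 0% to 100%. Among 34 such short scaffolds, 21 had at least 90% of their tags on 1 strand, 7 on plus and 14 on minus, and 9 had no plus tag at all.

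The strand of a scaffold was nearly the same in both libraries. Its plus share differed between them by a median of 1.30 percentage points over the 40 minor scaffolds and of 0.685 points over the large ones, with a largest difference of 11.5 points on a minor scaffold. Of scaffold_155's 26146 tags, 7 were on plus, 6 symbiotic and 1 aposymbiotic. All 1959 tags of scaffold_65 and all 1567 of scaffold_38 were on minus, and all 433 of scaffold_56 were on plus; these scaffolds were picked after their values were seen. On scaffold_45 93.1% and on scaffold_24 82.6% of tags were on plus.

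**Figure D3:**
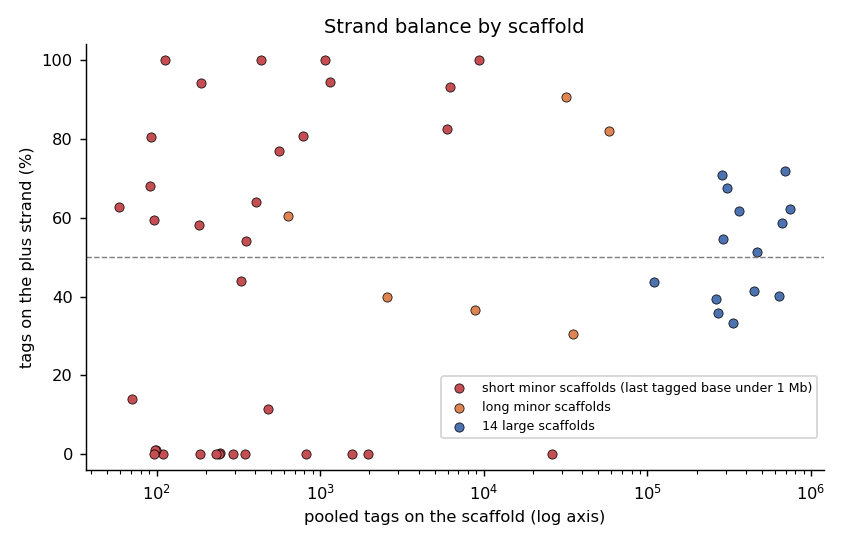
Percent of pooled tags on the plus strand against pooled tags per scaffold (logarithmic axis) for scaffolds with at least 50 pooled tags, 1 point per scaffold. The 14 large scaffolds sit between 33.2% and 71.8%, while 21 of 34 short minor scaffolds lie at the top or bottom with at least 90% of tags on 1 strand.

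Shorter stretches of the large scaffolds were compared as well. The large scaffolds were divided into windows of 100000 bases, also a choice made after the data were seen, and 2344 windows had at least 50 tags. Of these, 676 (28.8%, 27.0 to 30.7) had at least 90% of their tags on 1 strand, beside 21 of 34 short scaffolds (61.8%, 43.6 to 77.8). The windows were not matched in clusters, with a median of 8.5 on a short scaffold and 21 in a large-scaffold window, and the part of that in the strand shares was not tested. Windows of the long minor scaffolds resembled those of the large ones, with 57 of 205 (27.8%). The strongest cluster held a median of 27.9% of a short scaffold's tags and 13.9% of a large-scaffold window's. With both limited to 50 to 1000 tags the one-sided shares were 14 of 26 (53.8%, 33.4 to 73.4) and 22.2%, with medians of 7.5 and 16 clusters.

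Single loci made up part of the strand share of a scaffold. Scaffold_15 had 81.9% of its tags on plus, and 56.4% without the locus that held its strongest cluster. Scaffold_18 had 90.5% on plus, and still 69.9% without the locus from 1506 to 7630. The same was seen on other scaffolds. Without the strongest locus, the plus share went from 93.1% to 49.3% on the short scaffold_45. It went from 40.2% to 61.1% on the large scaffold_5, but only from 82.6% to 75.3% on the short scaffold_24. Over clusters, which weigh equally, the plus share was 50.02% on the long minor and 50.3% on the large scaffolds. It was 36.1% (32.0 to 40.4) on the short ones, and 45.0% (40.1 to 49.9) without the 103 minus-strand clusters of scaffold_155.

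The libraries were compared by the ratio of symbiotic to aposymbiotic CPM. Summed over all minor scaffolds it was 1.06 (1.05 to 1.07), over the short ones 1.12 (1.11 to 1.14), over the long minor ones 1.03 (1.02 to 1.04) and over the large ones 0.998 (0.9964 to 0.9997). In whole animals a smaller number of cells that use a start site and less RNA per cell cannot be told apart. The 14 large scaffolds ranged from 0.939 to 1.06, with 6 above 1, but each sums many more clusters than a short scaffold. In their windows of 100000 bases with at least 50 tags, the 10th to 90th percentile of the ratio was 0.778 to 1.24.

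Among the strong long scaffolds the ratios stayed within or near the range of the whole large scaffolds. They were 1.06 (1.04 to 1.07) on scaffold_15, 1.02 (0.995 to 1.04) on scaffold_16 and 1.06 (1.03 to 1.08) on scaffold_18. Scaffold_17, with 5560 symbiotic and 3282 aposymbiotic tags, was lower at 0.922 (0.883 to 0.963). The short scaffolds among the 8 strongest lay outside that range but within the 10th to 90th percentile of the windows. The ratio was 1.15 (1.12 to 1.18) on scaffold_155 with 17722 and 8424 tags, 1.23 (1.16 to 1.30) on scaffold_45 with 4324 and 1918 tags, and 1.2 (1.14 to 1.27) on scaffold_24 with 4097 and 1859 tags. Scaffold_139 went the other way, at 0.841 (0.807 to 0.877) with 5659 and 3664 tags.

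Most short scaffolds with at least 50 tags leaned to the symbiotic library by a small amount. Of the 34 with at least 50 tags, 29 had a ratio above 1 (85.3%, 68.9 to 95.05, taking scaffolds as independent and counting scaffold_60, which had no aposymbiotic tag) and the median ratio was 1.26 (1.18 to 1.42). The exact interval of the ratio lay above 1 in 15 and below 1 in 1, scaffold_139. Because scaffold_139 held many tags, the summed ratio of the short scaffolds was 1.19 (1.17 to 1.21) without it, and 1.23 (1.196 to 1.262) without scaffold_139, scaffold_155 and scaffold_60. With at least 20 tags, 30 of 42 short scaffolds had a ratio above 1, and the lean was not seen at 20 to 49 tags. There scaffold_21 was at 1.05, while scaffold_127, scaffold_108, scaffold_102, scaffold_31, scaffold_137, scaffold_62 and scaffold_118 lay between 0.476 and 0.842. Of these only the interval of scaffold_127 excluded 1. Of the 100000-base windows of the large scaffolds, 48.8% (46.7 to 50.8) had a ratio above 1, with a median of 0.996. A ratio above 1.2 was found in 23 short scaffolds (67.6%, 49.5 to 82.6) and in 13.2% (11.9 to 14.7) of these windows. In windows of the long minor scaffolds it was found in 45 of 205 (22.0%, 16.5 to 28.2), and a ratio above 1 in 46.3%. The units were not matched in tags, with medians of 312 on short scaffolds, 494.5 in large-scaffold and 183 in long minor windows. The part of that in the ratios was not tested.

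Examples among the short scaffolds, picked after their values were seen, show the size of the difference. Scaffold_38 had 1132 symbiotic and 435 aposymbiotic tags (ratio 1.42, 1.27 to 1.59). Scaffold_148 had 591 and 233 (1.38, 1.18 to 1.61), and scaffold_65 had 1381 and 578 (1.30, 1.18 to 1.44). Scaffold_28 had 815 and 327 (1.36, 1.19 to 1.55), whereas scaffold_27 had 705 and 372 (1.03, 0.909 to 1.17). Scaffold_28 and scaffold_27 were mostly plus, and scaffold_38, scaffold_65 and scaffold_148 mostly minus. The scaffold with the fewest aposymbiotic tags for its depth, scaffold_60, is described separately.

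**Figure D4:**
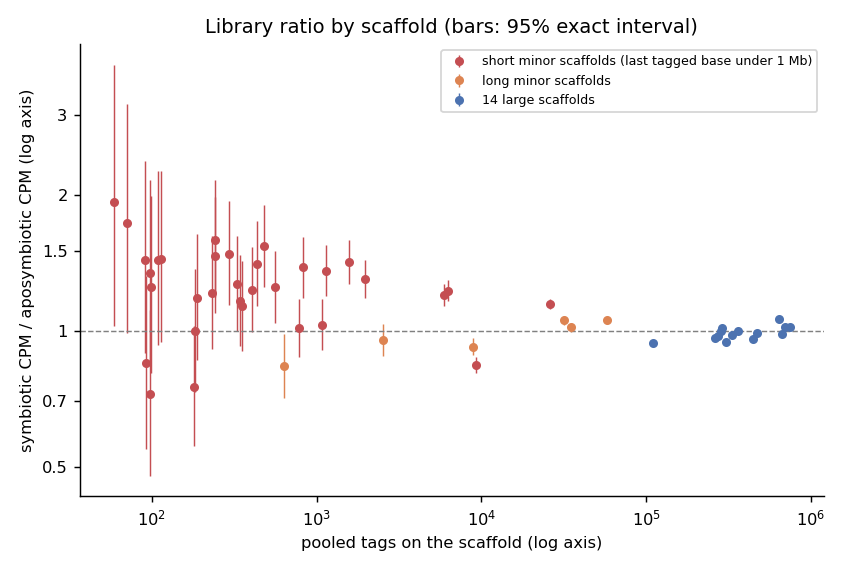
Symbiotic CPM over aposymbiotic CPM against pooled tags per scaffold (both axes logarithmic) for scaffolds with at least 50 pooled tags, with exact 95% intervals as bars. Scaffold_60, with 0 aposymbiotic tags, has no ratio and is not drawn. The large scaffolds lie between 0.939 and 1.06, and most short minor scaffolds lie above 1.

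Cluster by cluster, large differences were few. Of 258 minor-scaffold clusters with at least 50 pooled tags, 14 (5.43%, 3.00 to 8.94) passed a 2-fold rule as higher and 11 (4.26%, 2.15 to 7.50) as lower in the symbiotic library, on the scale of CPM + 1. Over all 5180 clusters of that size on any scaffold, 2.22% were higher, 3.40% lower and 5.62% either. The minor-scaffold share of higher clusters was above that background, and the share of lower clusters was near it. However, 6 of the 14 higher clusters lay on scaffold_16 and 3 on scaffold_155, and 6 of the 11 lower ones on scaffold_16. Counted as loci, 5 of 231 (2.16%, 0.706 to 4.98) were higher, near the 1.88% of all loci. As lower there were 8 (3.46%, 1.51 to 6.71), against 2.11%. By the 4-fold rule 0 of 258 were called in either direction, which allows a share of up to 1.16%, against 0.135% in the background.

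Long and short scaffolds contributed differently. On the long minor scaffolds 8 clusters were higher (4.57%, 1.99 to 8.81) and 11 lower (6.29%, 3.18 to 10.97) of 175. Both shares were above the 2.22% higher and 3.40% lower of all clusters with at least 50 pooled tags. The intervals included these background shares. The median log2 ratio on the long minor scaffolds was -0.03 (-0.16 to 0.07). On the short ones 6 (7.23%) were higher and 0 lower of 83, which allows a share lower of up to 3.61%, and the median log2 ratio was 0.25 (0.18 to 0.35). The same median was -0.02 on the large scaffolds. A log2 ratio above 0 was seen in 66 of the 83 short-scaffold clusters (79.5%) and in 48.2% of large-scaffold clusters. Of these 83 clusters, 23 lay in 1 locus of scaffold_155, with 3 of the 6 higher calls. The intervals treat clusters as independent, which neighbours are not, and no median was taken without scaffold_155. Among loci of at least 50 tags, 47 of 55 on short scaffolds (85.5%) and 49.7% on large scaffolds lay above 0. With a minimum of 20 pooled tags, 22 of 189 short-scaffold clusters (11.6%) were higher and 0 lower, which allows up to 1.59%, where 5.37% and 4.99% of all clusters of that size were.

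The lean did not rest on strong or weak clusters alone. In bins from 5 to 9 up to 500 or more pooled tags, the median log2 ratio of short-scaffold clusters lay between 0.18 and 0.42, and that of large-scaffold clusters between -0.04 and 0.06. The interval over clusters included 0 in the bin of 10 to 19 tags (-0.04 to 0.31) and in none of the other bins. Clusters without aposymbiotic tags pass the minimum of 5 pooled tags through the deeper symbiotic library alone, so they do not bear on the lean. Of short-scaffold clusters with 5 to 9 pooled tags, 33 of 207 (15.9%) had no aposymbiotic tag. That share was near the 13.01% on the large scaffolds and the 14.4% (190 of 1319) over all minor scaffolds.

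Among the 6 clusters with the largest ratio, 3 lay on scaffold_155 and a neighbouring pair on scaffold_16. That pair lay on plus at 1952170 to 1952230, with 74 symbiotic and 12 aposymbiotic tags, and at 1952328 to 1952427, with 94 and 17. Those of scaffold_155, all on minus, lay at 5563 to 5630 (44 and 7 tags), 8173 to 8246 (61 and 11 tags) and 14243 to 14274 (51 and 9 tags). The sixth lay on scaffold_59 at 45681 to 45796, minus strand (49 and 8 tags). Their CPM ratios ran from 3.01 to 3.42. All 6 were weak, with 11.2 to 23.9 CPM in the symbiotic and 3.27 to 7.95 CPM in the aposymbiotic library.

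The 6 clusters with the smallest ratio were all on long minor scaffolds and were 2.60-fold to 2.95-fold lower in CPM. The lowest lay on scaffold_15 from 564487 to 564550, minus strand, with 28 symbiotic and 45 aposymbiotic tags (2.95-fold lower, 1.80 to 4.91). On scaffold_16 there was again a neighbouring pair, on minus at 6231050 to 6231131 (41 and 60 tags) and at 6231726 to 6231816 (33 and 48 tags), and a plus-strand cluster at 785048 to 785112 (48 and 68 tags). The others were on scaffold_18 at 1322591 to 1322610, minus (23 and 34 tags), and on scaffold_15 at 8778330 to 8778399, plus (23 and 33 tags). Each had more aposymbiotic than symbiotic tags, although the aposymbiotic library was the shallower one.

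Summing clusters into loci turned the balance of calls on the minor scaffolds. Of 231 loci with at least 50 tags 5 passed the 2-fold rule as higher and 8 as lower, where 1.88% and 2.11% of all 5263 loci were. For the 55 loci on short scaffolds, 2 were higher and 1 lower, and their median log2 ratio was 0.33 (0.23 to 0.50), against 0.00 on the large scaffolds.

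Scaffold_155 was the densest of the set, and clusters covered 26.1% of its tagged extent. Its 103 clusters were all on minus, with a median gap of 64 bases and a largest gap of 511, and formed 1 locus from 1781 to 16197. The tags peaked in separate places. Bases 2001 to 4000 held 54.8% of its tags, with a ratio of 1.23 (1.19 to 1.27), and bases 9001 to 10000 had 5850 symbiotic and 3201 aposymbiotic tags, with a ratio of 0.995 (0.953 to 1.04). The ratio was thus not uniform along the scaffold. Between the peaks, from 4001 to 9000, there were 1009 symbiotic and 340 aposymbiotic tags (1.62, 1.43 to 1.83), and past base 10000 there were 689 and 354 (1.06, 0.931 to 1.21). Of its 23 clusters with at least 50 tags, 3 passed the 2-fold rule as higher and 0 as lower. Over all 5180 clusters of that size, 2.22% were higher and 3.40% lower. With 23 neighbours in 1 locus, the absence of lower calls is not a result.

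**Figure D5:**
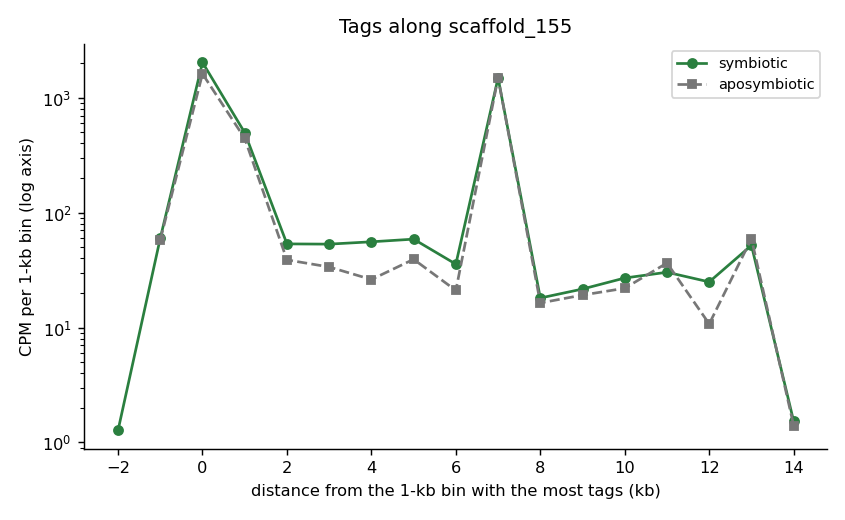
CPM in bins of 1 kb along scaffold_155 (logarithmic axis) in the symbiotic and aposymbiotic libraries, against distance from the bin with the most tags; a bin with 0 tags in a library is not drawn for it. The 3 strongest bins hold 89.5% of the tags, and in each of the 5 bins between the peaks, where the summed ratio was 1.62, the symbiotic CPM was the higher.

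Scaffold_18 also held stretches of unlike ratio. Its first 10000 bases had 14869 symbiotic and 6857 aposymbiotic tags, 68.6% of the scaffold's tags, with a ratio of 1.18 (1.15 to 1.22) and 99.9% of tags on plus. The rest had 6013 and 3910 tags, with a ratio of 0.837 (0.804 to 0.872) and 70.0% on plus. The summed ratio of 1.06 therefore joined a higher and a lower part. Scaffold_15 was more even, at 1.11 (1.08 to 1.13) in its strongest locus and 0.985 (0.959 to 1.01) elsewhere.

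Scaffold_139 had the opposite layout, with a single cluster and all of its tags between bases 24059 and 24864. The cluster held 99.98% of its tags, and 29.4% of them lay at base 24085, the most used base of both libraries with 1663 symbiotic and 1074 aposymbiotic tags. At 1441 CPM in the symbiotic and 1713 CPM in the aposymbiotic library it was 1.19-fold lower (1.14 to 1.24) in the symbiotic library.

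Scaffold_60, singled out after its values were seen, was tagged in the symbiotic library alone. It had 96 symbiotic tags (exact Poisson interval 77.8 to 117), or 24.4 CPM, and 0 aposymbiotic tags, which allows up to 3 tags or 1.40 CPM. Set against that floor, the symbiotic CPM was 17.4-fold higher. The exact interval of the ratio, which also takes in the counting error of the 96 tags, began at 13.9, and 52.3 aposymbiotic tags would have matched the ratio of all other tags. The tags were scattered over bases 3102 to 66612 at 77 positions, 64 of them with 1 tag, on both strands (57 plus and 39 minus). Only 18.8% fell in clusters, the 3 minus-strand ones at 17367 to 17387, 17739 to 17757 and 18390 to 18424, with 6, 7 and 5 tags. Of the 15 other scaffolds tagged in the symbiotic library alone, none had more than 5 tags, and the 2 tagged in the aposymbiotic library alone had 1 tag each.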

How the data were processed

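The values are raw tag counts per base and strand, and summed per listed cluster, as the authors deposited them. Tools named in the submitters' processing notes are STAR 2.7.11b and fastp 1.1.0. Not given in the sources used here are the genome build, annotation, tag counter and any removal of duplicates. Scaffolds, coordinates (counted from 1) and strands are as in the files; no genome was used here, so sequences and genes were not analysed.

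Tags of both libraries were pooled and clustered as described. CPM used library totals; 1 tag was worth 0.255 CPM in the symbiotic and 0.468 CPM in the aposymbiotic library. Ratio calls used CPM + 1, which understates changes of low clusters, in clusters of at least 50 pooled tags; printed folds are CPM ratios without the added 1. Shares have Clopper-Pearson intervals, ratios exact binomial intervals and medians exact order-statistic intervals, all at 95%. With 1 library per group there was no p-value. A value of 0 allows 3 counts per library or set. That limit is tighter than the Clopper-Pearson one, which for 0 of 83 clusters is 4.35% in place of 3.61%.

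Regions named by rule were the 8 strongest minor scaffolds, those of ranks 13 to 16, the 10 strongest clusters, and among clusters of at least 50 tags the 6 with the largest and 6 with the smallest ratio, the 4 widest and the 4 narrowest. The members, the division by extent and the windows were chosen with earlier results of these data known. Alternatives covered joining distance, tag minimums, scaling (TMM from edgeR 4.0.16, R 4.3.3), added CPM and width. Scripts (matplotlib 3.10.9, scipy 1.17.1, pandas 2.3.3, numpy 2.4.6, Python 3.11.15) were tested on simulated data.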

Additional observations from a re-analysis of the deposited data

Results flagged for a closer look

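A signal lay in tags that the deposited cluster lists leave off the strand they name. The lists were rebuilt on the minor scaffolds in full (1830 symbiotic and 1097 aposymbiotic clusters) by joining positions without regard to strand, and each cluster is listed on a single strand. Of the minor-scaffold tags, 5532 in the symbiotic library (4.23%, 4.12 to 4.34) and 38 in the aposymbiotic library (0.0566%, 0.0401 to 0.0777) lay inside a listed cluster but on the other strand. Most of the symbiotic ones belonged to the cluster of scaffold_155 from 2105 to 2755, listed on plus with 5142 tags of which 5141 were on minus. In all, 5 symbiotic clusters and 1 aposymbiotic cluster were listed on the strand with the fewer tags, the aposymbiotic one also on scaffold_155, at 9228 to 9241. On the large scaffolds these tags made up 5.19% of the symbiotic and 1.32% of the aposymbiotic tags. The clusters of the report keep strands apart and do not use the listed strand.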

How the results depend on the processing

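Of 63 alternatives over 14 results, 30 gave values within the interval of the main value or, for counts, within 1.5 times. The other 33 moved further. Of the alternatives, 45 were planned and 18 were added after the data were seen. No paired analysis was possible because both groups have a single library, so none could be left out either. The cluster number was 4624 and 1243 with minimums of 3 and 10 tags, and 8726 and 1113 with 12 and 16 scaffolds set apart, by construction. The minor share of pooled tags was 9.39% and 1.73% with 12 and 16 set apart, 5.29% with each position counted once and 4.55% with positions capped at the 99th percentile. The median width was 18 bases for the 25th to 75th percentile, 52 from 50 tags, 52 for the full span, and 14 and 93 when joining over at most 10 and 50 bases; large scaffolds gave 21, 59, 55, 14 and 98. The sharp share was 13.6% at most 5 bases wide, 31.1% at most 20 and 13.95% from 50 tags; large scaffolds gave 11.7%, 27.5% and 8.86%. The plus share of tags was 53.5% without the strongest cluster, below the 55.6% of the large scaffolds, 49.8% with each position counted once, below their 50.3%, 58.8% symbiotic and 59.5% aposymbiotic. Clusters past the ratio rule numbered 0 at 4-fold, 84 from 20 tags (46 higher, 38 lower), 6 from 100 tags (3 and 3), 9 with 5 CPM added (4 and 5) and 13 as loci (5 and 8), against 25 (14 and 11), so the balance of higher and lower calls turned with 5 CPM added and as loci. TMM scaling gave 16 higher and 10 lower. The summed ratio was 1.05 without the strongest cluster, 1.08 with capped positions, 1.04 with each position counted once and 1.23 as a median over scaffolds. The strongest cluster held 12.2% when joined over 50 bases. A ratio above 1 was found in 95.2% of short scaffolds with at least 200 tags and in 71.4% with at least 20; their median ratio was 1.25 and 1.22. Their summed ratio was 1.19 without scaffold_139 and 1.23 also without scaffold_155 and scaffold_60. Where no reason stands beside a shift, the cause was not tested. Depth limits clusters under 50 tags, and 1 aposymbiotic tag weighs 1.84 times as much as a symbiotic one.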
